A study of Mus musculus with 8 samples.

Results

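The 33 genes described here make up 2 linked arms of lipid control in macrophages, sterol synthesis and the lipid genes governed by the liver X receptors (LXR). They were chosen by name, as a list of genes of cholesterol synthesis, sterol sensing and transport (23 genes, called the sterol side below) and of LXR receptors, LXR targets, fatty acid synthesis and phospholipid remodelling (10 genes, the LXR side), out of 23413 gene symbols in the deposited counts. Their RNA was followed in tumor-associated macrophages (TAMs) sorted from B16F10 tumors, a mouse melanoma line grown under the skin of the flank of male C57BL/6 (B6) mice aged 8 to 10 weeks at engraftment. RNA-seq was made from 8 mice, with 1 library each. Of these, 2 mice received the vehicle DMSO, 4 received thiostrepton by intraperitoneal injection (I.P., labelled IP), and 2 received thiostrepton next to the tumor (labelled IS, in the study's methods a paratumor subcutaneous injection of 20 mg/kg, called S.C. here). Doses were given on days 6 and 12 after engraftment and TAMs were sorted at day 18 as CD45+F4/80+CD11b+Gr-1- cells. In the study's tumor growth experiments I.P. doses were 150 or 300 mg/kg, both above the S.C. dose. Which of them the sequenced I.P. mice received, and by which route their controls received DMSO, is not given in the sources used here. Thiostrepton is a thiopeptide antibiotic made by a bacterium, and the mice carried no engineered allele.

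Cells build cholesterol from acetyl-CoA through mevalonate, farnesyl diphosphate, squalene and lanosterol, and the enzymes of this chain are switched on together by the transcription factor SREBP2, encoded by Srebf2, when membranes run low in sterol. SCAP carries SREBP2 to the Golgi for cleavage, and the INSIG proteins hold it back in the endoplasmic reticulum when sterol is plentiful. LXR answers the opposite state: it is activated by oxysterols and by desmosterol, turns on the efflux transporters ABCA1 and ABCG1, the ubiquitin ligase MYLIP, which limits lipoprotein uptake, and the lipogenic factor SREBP1c, and is well known for keeping macrophages from becoming foam cells.

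Each library held between 14127506 and 17577466 counts, and all 33 genes passed the filter on low counts in every comparison, the lowest single value being 9 counts. Markers of macrophages summed to between 10375 and 15221 counts per 1000000 library counts (CPM) in every mouse, with all 10 of the listed markers present. C1qb was the largest part of this sum in every mouse, and single markers were less even. Adgre1 was at 353.1 and 1012 CPM in S.C. mice 1 and 2, and Csf1r at 345.5 and 1119 CPM. Itgam, Ptprc, Mrc1 and Mertk were also lower in S.C. mouse 1 than in S.C. mouse 2, whereas Cd68, C1qa, C1qb and Fcgr1 were higher. The S.C. pair was far less even than the DMSO pair: of 9325 genes averaging 5 CPM or more, 33.4% differed by more than 2-fold between S.C. mice 1 and 2, against 5.36% between the DMSO mice, and S.C. mice had 0 counts for 0.525% and 0.365% of these genes, against 0.0107% to 0.129% in the other mice. The same held for the genes of interest, of which 8 of the 31 above that level (25.8%) differed by over 2-fold between the S.C. mice and 2 (6.45%) between the DMSO mice. Melanoma markers (5 of 5 detected) summed to 583 and 644 CPM in the DMSO mice, 424 to 1692 CPM in the I.P. mice and 2876 and 671 CPM in S.C. mice 1 and 2. Neutrophil markers (5 of the 6 listed have values, and none of these was at 0 in all mice) reached 226 CPM in S.C. mouse 2 and at most 32.5 CPM elsewhere. Lymphocyte markers (6 of 6) summed to 28.9 and 21.7 CPM in the S.C. mice and to at most 8.38 CPM in the others. Gzma (14.6 and 6.86 CPM) and Nkg7 (8.17 and 11.3 CPM) were the largest parts of the S.C. sums, and Cd3g was also higher there. Cd3e and Ncr1 stood out in S.C. mouse 1 alone. Cd3d went the other way, at 0 and 0.144 CPM with S.C. against 1.16 and 0.462 CPM with DMSO. Monocyte markers (4 of 4) summed to between 9.91 and 27.2 CPM in the I.P. mice against 69.3 to 85.8 CPM with DMSO and 95.6 to 126 CPM with S.C. Of the adipocyte markers, 4 of 5 were at 0 in all mice. The part of these other cells in the results below was not tested, and in sorted bulk samples fewer cells of a type cannot be told apart from less RNA per cell.

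**Figure D1:**
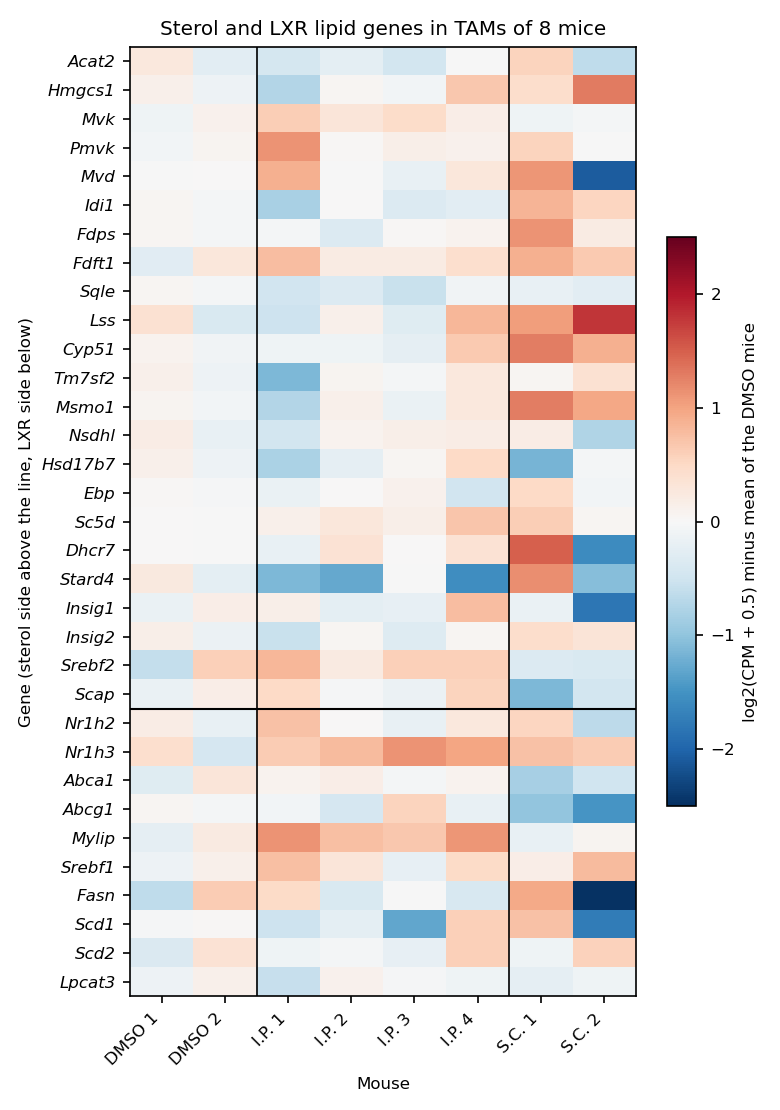
Heat map of the 33 genes (rows, sterol side above the horizontal line and LXR side below) in the 8 mice (columns), colored by log2(CPM + 0.5) minus the mean of the DMSO mice. Lss, Cyp51 and Msmo1 are red in both S.C. mice and Abcg1 is blue in both, Mylip and Nr1h3 are red in all 4 I.P. mice, and Mvd, Dhcr7 and Stard4 have opposite colors in S.C. mice 1 and 2.

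The amounts of these RNAs were compared between genes as CPM per kilobase of exon. In the DMSO mice the highest mean levels on this scale belonged to Ebp, a sterol isomerase late in the chain (37.8 CPM per kb), Lpcat3, which puts polyunsaturated chains into phospholipids (23 CPM per kb), Scd2, a fatty acid desaturase (18.6 CPM per kb), and Abca1 (17.4 CPM per kb). The lowest were Scd1, another desaturase (0.688 CPM per kb), Fasn, the fatty acid synthase (0.793 CPM per kb), and Tm7sf2, a sterol reductase (0.923 CPM per kb). TAMs of control tumors thus held more RNA per length of the efflux transporter Abca1 than of Fasn or Scd1. In the S.C. mice Msmo1 stood second among the sterol enzymes with a mean of 26.1 CPM per kb, up from 11.9 CPM per kb with DMSO, and Ebp stood at 44.5 CPM per kb.

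Whether thiostrepton given next to the tumor altered these genes in TAMs was asked first, by comparing the 2 S.C. with the 2 DMSO mice. Lss, Cyp51 and Msmo1, enzymes that make lanosterol and begin to strip its methyl groups, rose by 2.15- to 2.73-fold, and Abcg1, which moves cholesterol out to lipoproteins, fell by 2.34-fold, each at an unadjusted P under 0.05 and each past 2-fold, the criterion that the study used for differentially expressed genes (DEGs). Below, a gene is said to pass when its unadjusted P was under 0.05 in edgeR's quasi-likelihood test. These 3 of 23 genes of the sterol side (13.0%) and this 1 of 10 of the LXR side (10%) are to be read against 2.5% of all 11680 genes tested that were higher and 2.91% that were lower at that P, and 5.06% that also passed 2-fold in either direction. None of the 33 genes passed an adjusted p of 0.05 in edgeR's quasi-likelihood test with Benjamini-Hochberg adjustment, their lowest being 0.747, nor in edgeR's likelihood ratio test or in DESeq2. Among all genes 0 passed it (0%), while 292 were higher and 340 lower at the unadjusted P, and 179 and 107 genes passed the adjusted p in the likelihood ratio test and in DESeq2.

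Promoters of Lss, Cyp51 and Msmo1, which passed with S.C., are shown next, since SREBP2 and its partner NF-Y are known to act near the start of genes of this kind, together with those of Idi1, which passed between the routes, of Hmgcs1, which passed in no comparison and is shown for its TCACNCCAC match, and of Mylip, one of the 2 genes that passed with I.P. Each runs from 250 bases before to 50 bases after a RefSeq transcription start (GRCm38.p6, whose chromosomes are those of the mm10 build used for the counts), 5′ to 3′ on the gene's own strand, with capitals marking TCACNCCAC, a form of the sterol response element, and CCAAT, the NF-Y box, on either strand.
Lss, chr10:76531355-76531654, plus strand: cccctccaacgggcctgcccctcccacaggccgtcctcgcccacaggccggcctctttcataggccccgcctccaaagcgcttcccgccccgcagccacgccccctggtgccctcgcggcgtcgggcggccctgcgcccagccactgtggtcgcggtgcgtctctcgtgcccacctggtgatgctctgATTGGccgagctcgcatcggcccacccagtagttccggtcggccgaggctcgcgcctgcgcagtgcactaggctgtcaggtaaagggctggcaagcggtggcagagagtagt
Cyp51, chr5:4104648-4104947, minus strand: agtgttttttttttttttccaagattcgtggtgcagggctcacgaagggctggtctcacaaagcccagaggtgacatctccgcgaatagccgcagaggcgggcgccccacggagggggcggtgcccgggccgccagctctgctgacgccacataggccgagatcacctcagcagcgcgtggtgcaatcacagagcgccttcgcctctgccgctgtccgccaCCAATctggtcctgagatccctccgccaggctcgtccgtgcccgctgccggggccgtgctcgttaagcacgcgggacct
Msmo1, chr8:64733529-64733828, minus strand: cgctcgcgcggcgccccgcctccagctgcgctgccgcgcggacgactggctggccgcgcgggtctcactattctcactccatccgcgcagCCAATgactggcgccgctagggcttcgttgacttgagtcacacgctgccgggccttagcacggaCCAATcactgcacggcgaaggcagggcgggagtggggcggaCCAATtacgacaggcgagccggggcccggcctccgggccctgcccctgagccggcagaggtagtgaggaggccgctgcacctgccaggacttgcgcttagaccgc
Idi1, chr13:8885356-8885655, plus strand: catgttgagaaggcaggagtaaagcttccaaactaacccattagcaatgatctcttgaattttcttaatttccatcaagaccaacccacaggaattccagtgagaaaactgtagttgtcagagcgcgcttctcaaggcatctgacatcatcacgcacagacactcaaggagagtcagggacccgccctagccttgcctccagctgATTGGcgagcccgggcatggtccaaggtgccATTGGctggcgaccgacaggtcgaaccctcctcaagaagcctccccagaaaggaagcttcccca
Hmgcs1, chr13:119690101-119690400, plus strand: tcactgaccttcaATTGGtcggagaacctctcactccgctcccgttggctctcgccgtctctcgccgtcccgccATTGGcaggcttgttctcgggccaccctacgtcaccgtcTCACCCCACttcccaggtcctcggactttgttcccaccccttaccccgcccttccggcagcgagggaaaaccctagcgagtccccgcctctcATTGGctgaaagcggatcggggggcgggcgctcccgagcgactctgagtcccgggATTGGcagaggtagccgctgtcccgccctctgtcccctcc
Mylip, chr13:45389492-45389791, plus strand: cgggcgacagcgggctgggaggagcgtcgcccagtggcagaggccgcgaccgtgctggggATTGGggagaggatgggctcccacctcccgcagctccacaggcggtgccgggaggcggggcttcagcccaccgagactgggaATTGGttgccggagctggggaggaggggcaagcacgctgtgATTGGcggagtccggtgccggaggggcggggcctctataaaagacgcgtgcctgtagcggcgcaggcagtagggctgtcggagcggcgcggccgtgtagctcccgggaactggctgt
Lss and Cyp51 carried 1 CCAAT match each, Idi1 2, Msmo1 and Mylip 3 each, and Hmgcs1 4 together with the single TCACNCCAC match found among the genes, TCACCCCAC, which begins at base 114 when the first base shown is counted as 1. Promoters were found for 26 of the 33 genes, some with more than 1 start. CCAAT was present in 17 of the 25 promoters of the sterol side (68%) and in 5 of the 10 of the LXR side (50%), against 37.4% of all 32851 promoters of the same length. TCACNCCAC was in 1.24% of all promoters. CACGTG, an E-box that SREBPs can also use, was in 24% of sterol-side and 10% of LXR-side promoters against 7.15% of all, and AGGTCA repeated in the same direction after NNNN, the strict form of the LXR response element, was in 0.0152% of all promoters and in none of the genes' windows. A match only describes the letters, and enhancers outside these windows were not searched.

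The first enzymes of the chain were represented by Hmgcs1 and Acat2, which make HMG-CoA and its precursor. Hmgcs1 stood at 41.7 and 35.3 CPM in the DMSO mice, at 22.8, 39.5, 36.5 and 61.1 CPM in the I.P. mice, and at 52.1 and 95.8 CPM in the S.C. mice. Both S.C. mice lay above both DMSO mice, whereas the I.P. mice spread to either side. The S.C. difference of 1.92-fold (log2 0.94 ± 0.41, SE) did not pass the test (edgeR quasi-likelihood test, adjusted p = 0.94). Acat2 ranged from 13.8 to 32.1 CPM over all 8 mice, and its 2 extremes were the 2 S.C. mice.

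From mevalonate to farnesyl diphosphate, 2 of 5 genes had both S.C. mice above both DMSO mice. Idi1, the isomerase that readies isoprene units for joining, was at 37.1 and 34.5 CPM with DMSO, at 20.3, 36.1, 28.2 and 29.8 CPM with I.P., and at 65.0 and 52.0 CPM with S.C. The S.C. mice were the highest of the 8, and the I.P. mice reached down below the controls. Against DMSO the S.C. change was 1.64-fold (log2 0.71 ± 0.34, edgeR quasi-likelihood test, adjusted p = 0.988) and did not pass. Fdps, which makes farnesyl diphosphate, gave 54.8 and 51.9 CPM with DMSO, 51.6, 42.0, 54.7 and 56.8 CPM with I.P., and 117 and 61.8 CPM with S.C. Here S.C. mouse 1 carried most of the difference of 1.68-fold, which did not pass. In GENCODE vM21 Fdps, with 4208 exon bases, shares exon stretches of up to 197 bases with Gm43738 on the same strand. Some reads of the pair may therefore be shared. Of the 3 enzymes that turn mevalonate into isoprene units, Mvk (9.03 to 15.3 CPM over all mice) and Pmvk (22.8 to 53.1 CPM) passed in neither route. Mvd had 15.7 CPM in each DMSO mouse but 34.4 CPM in S.C. mouse 1 and 3.32 CPM in S.C. mouse 2, on opposite sides of the controls.

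At the squalene step the 3 enzymes differed among themselves. Lss, which folds oxidosqualene into lanosterol, had 19.1 and 11.0 CPM with DMSO, 9.92, 15.8, 11.7 and 26.3 CPM with I.P., and 30.5 and 51.5 CPM with S.C. Both S.C. mice exceeded the other 6, with I.P. mouse 4 next. The rise over DMSO was 2.73-fold (log2 1.45 ± 0.50, edgeR quasi-likelihood test, adjusted p = 0.822). Fdft1, squalene synthase, was at 11.4 and 17.3 CPM with DMSO, 24.4, 16.3, 16.3 and 19.0 CPM with I.P., and 26.4 and 22.6 CPM with S.C. Its S.C. mice lay above the controls by 1.70-fold, short of the test, and its exons overlap those of Ctsb on the other strand. Sqle, the epoxidase widely taken as a rate-limiting step, gave 42.4 and 39.1 CPM with DMSO, 28.9, 32.2, 27.3 and 38.5 CPM with I.P., and 35.5 and 33.7 CPM with S.C. All 6 treated mice were therefore below both controls, unlike Lss and Fdft1 in the S.C. mice, by log2 -0.37 ± 0.23 with I.P. and -0.23 ± 0.34 with S.C., neither past the test.

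Of the 8 genes that act between lanosterol and cholesterol, Cyp51 and Msmo1 passed with S.C. Cyp51, the lanosterol demethylase, was at 28.9 and 25.4 CPM with DMSO, 25.3, 25.0, 23 and 42.8 CPM with I.P., and 66.4 and 50.4 CPM with S.C. The S.C. mice stood above all others, and a single I.P. mouse, number 4, left the range of the controls upwards. The rise over DMSO was 2.15-fold (log2 1.11 ± 0.36, edgeR quasi-likelihood test, adjusted p = 0.793), and Cyp51 overlaps Akap9 on the other strand. Msmo1, the methylsterol monooxygenase that acts soon after, reached 178 and 143 CPM with S.C., from 75.9 and 69.9 CPM with DMSO and 43.5, 79.8, 64.5 and 88.0 CPM with I.P. Both S.C. mice were far above the other 6, by 2.21-fold over DMSO (log2 1.14 ± 0.31, edgeR quasi-likelihood test, adjusted p = 0.747). The other genes of this stretch did not pass in either route: Tm7sf2, which shares exon bases with Vps51, ranged from 1.58 to 5.42 CPM over the 8 mice, Nsdhl, which removes methyl groups together with Msmo1, from 12.6 to 24.8 CPM, Hsd17b7 from 4.09 to 14.2 CPM, Ebp from 62.7 to 123 CPM and Sc5d from 19.0 to 31.1 CPM. Dhcr7, the last reductase before cholesterol, had 15.9 and 15.7 CPM with DMSO and between 13.8 and 20.4 CPM with I.P., but 45.3 CPM in S.C. mouse 1 and 4.99 CPM in S.C. mouse 2.

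**Figure D2:**
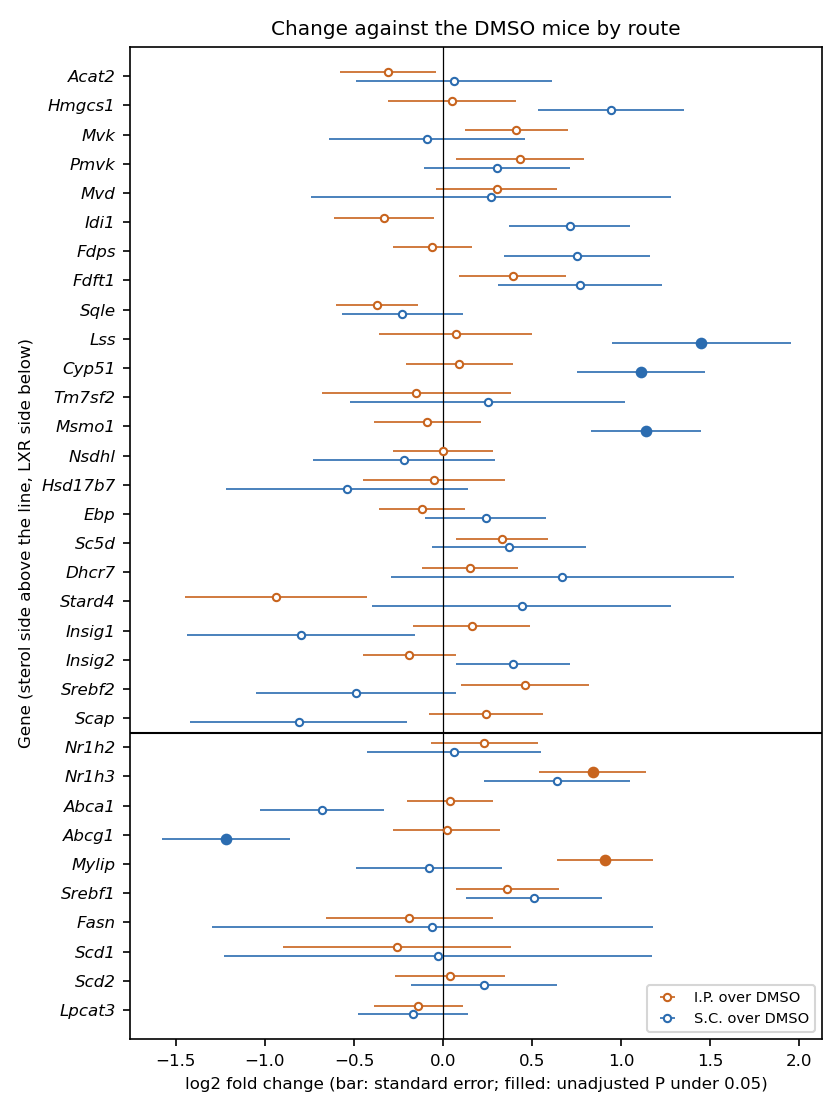
Log2 fold change over the DMSO mice for each gene (rows), with I.P. in orange and S.C. in blue; bars are standard errors, and filled points have an unadjusted P under 0.05. Filled blue points lie at Lss, Cyp51, Msmo1 and Abcg1, filled orange points at Nr1h3 and Mylip, and the S.C. bars are widest at Fasn (SE 1.24) and Scd1 (SE 1.2).

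None of the 4 genes of sterol sensing passed with S.C., and 3 of them had log2 fold changes below 0. Srebf2, the gene of SREBP2 and itself one of its targets, was at 12.2 and 28.2 CPM with DMSO, 33.5, 21.7, 28.3 and 28.1 CPM with I.P., and 14.6 and 14.2 CPM with S.C. The DMSO mice were themselves far apart, and the S.C. mice were close to each other within their range. Insig1, a sensitive SREBP2 target that restrains it, was at 24.3 and 30.4 CPM with DMSO, 30.1, 23, 23.5 and 46.9 CPM with I.P., and 24.1 and 7.37 CPM with S.C. Both S.C. mice were below the controls, mouse 1 only just, giving log2 -0.80 ± 0.64, which did not pass. Scap, the SREBP escort, gave 9.87 and 12.4 CPM with DMSO, 15.7, 10.8, 9.92 and 16.5 CPM with I.P., and 4.81 and 7.87 CPM with S.C., again lower in both S.C. mice without passing (log2 -0.81 ± 0.61). Insig2 pointed the other way, with 81.3 and 74.9 CPM in the S.C. mice against 53.4 and 66.3 CPM in the controls (log2 0.39 ± 0.32).

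Stard4, a carrier of cholesterol between membranes, differed between mice more than between groups, with 12.1 and 8.49 CPM with DMSO, 4.36, 3.85, 10 and 3.12 CPM with I.P., and 23.3 and 4.55 CPM with S.C. In the I.P. group 3 of 4 mice were below both controls and 1 lay between them, at log2 -0.94 ± 0.51, and the S.C. mice enclosed the controls.

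The sterol side as a whole was then compared. With S.C., 16 of its 23 genes had a log2 fold change above 0 and the median was 0.30, against a median of 0.02 over all genes, of which 51.6% were above 0. Groups did not overlap, with both S.C. mice higher, for 9 genes (39.1%; Hmgcs1, Idi1, Fdps, Fdft1, Lss, Cyp51, Msmo1, Sc5d and Insig2) and lower for 3 (13.0%; Sqle, Insig1 and Scap), where 16% and 18.5% of all genes did so. On the LXR side 2 genes were higher in both S.C. mice (Nr1h3 and Srebf1) and 2 lower (Abca1 and Abcg1), the median being -0.04. Without S.C. mouse 1 the medians were -0.07 and -0.33, so that the sterol-side median above 0 rested on that mouse. The average over the sterol side did not separate the groups: the mean log2 CPM of its 23 genes was 4.49 and 4.44 with DMSO, 4.31 to 4.69 with I.P., and 4.92 and 4.37 in S.C. mice 1 and 2, so that S.C. mouse 2 was below both controls although Lss and Hmgcs1 were at their highest there.

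The part of melanoma RNA in these values was not tested. S.C. mouse 1 and I.P. mouse 4 had the largest sums of melanoma markers, 2876 and 1692 CPM, and the highest sterol-side means, 4.92 and 4.69. I.P. mouse 2 came next with 963 CPM, and its sterol-side mean of 4.43 was close to the 4.49 and 4.44 of the DMSO mice. Lss, Cyp51 and Msmo1 were above every DMSO and I.P. mouse in S.C. mouse 2 as well. That mouse had 671 CPM of melanoma markers, beside 644 CPM in DMSO mouse 2, and 226 CPM of neutrophil markers. With S.C. mouse 2 as the lone S.C. library, Lss was at log2 1.77, Cyp51 at 0.88, Msmo1 at 0.97 and Abcg1 at -1.51. With S.C. mouse 1 as the lone library the same genes were at 1.0, 1.27, 1.26 and -1.02. These genes were named for their change in both S.C. mice together. In such fits the lone mouse is assumed to vary like the DMSO mice, so passing the unadjusted threshold there is no separate support. All 4 calls were lost when either DMSO mouse was left out, at log2 1.89, 1.19, 1.19 and -1.17 in the same order without DMSO mouse 1 and at 1.09, 1.0, 1.07 and -1.29 without DMSO mouse 2.

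**Figure D3:**
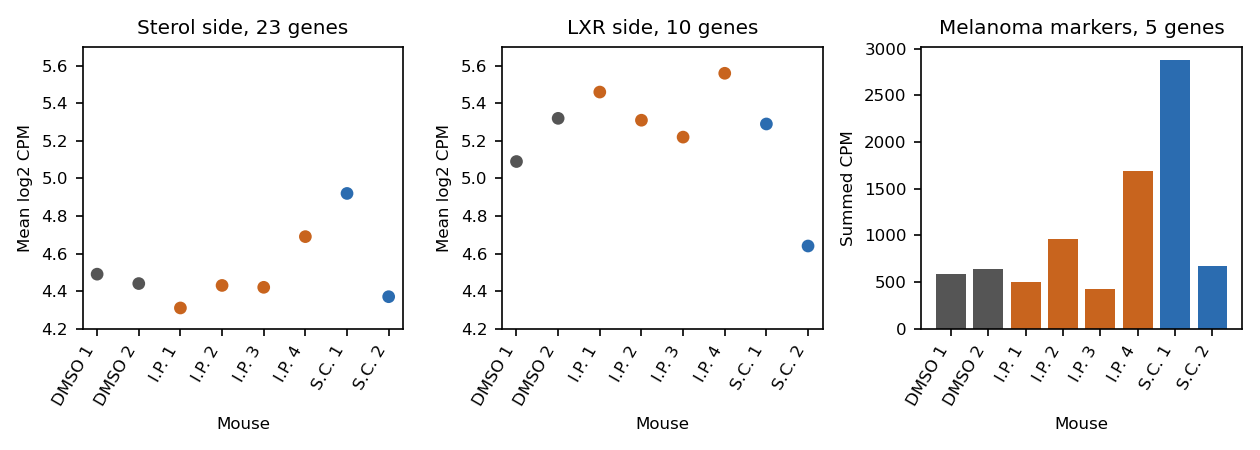
Mean log2 CPM of the sterol side (left) and the LXR side (center), on axes that start at 4.2, and summed CPM of 5 melanoma markers (right, axis from 0) in each mouse, with DMSO in grey, I.P. in orange and S.C. in blue. S.C. mouse 1 is highest in the left and right panels, and S.C. mouse 2 is the lowest in the center panel at 4.64.

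The single S.C. mice also called different genes. Against DMSO, S.C. mouse 2 alone had 13 of the 33 genes past that threshold, with Hmgcs1, Lss, Cyp51, Msmo1 and Srebf1 higher and Mvd, Nsdhl, Dhcr7, Stard4, Insig1, Abcg1, Fasn and Scd1 lower, where 13.7% and 16.7% of all genes passed upwards and downwards. S.C. mouse 1 alone had 13 as well, 9 of them higher (Mvd, Idi1, Fdps, Fdft1, Lss, Cyp51, Msmo1, Dhcr7 and Stard4) and 4 lower (Hsd17b7, Scap, Abca1 and Abcg1), against 13.5% and 20.5%. Here too the spread of the lone mouse is taken from the DMSO mice, so these counts are no result about the 33 genes in particular. Mvd, Dhcr7 and Stard4 thus moved in opposite directions in the 2 mice. Lss, Cyp51, Msmo1 and Abcg1 moved in the same direction in both, which their choice from both mice together had largely fixed.

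On the LXR side the efflux transporters came first. Abcg1 (chr17:31057675-31117988 in GRCm38, GENCODE vM21, plus strand) was at 75.6 and 69.7 CPM with DMSO, 69.4, 54.1, 107 and 64.0 CPM with I.P., and 36.4 and 25.7 CPM with S.C. Both S.C. mice lay below the other 6 by a clear margin, and the I.P. mice surrounded the controls. The fall against DMSO was 2.34-fold (log2 -1.22 ± 0.36, edgeR quasi-likelihood test, adjusted p = 0.747). Abca1, which loads cholesterol and phospholipid onto apolipoproteins, gave 143 and 217 CPM with DMSO, 188, 197, 169 and 187 CPM with I.P., and 98.6 and 125 CPM with S.C. The S.C. mice were again the lowest, but the controls were far apart and log2 -0.68 ± 0.35 did not pass.

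Mylip and the receptor gene Nr1h3 were the genes that passed with I.P. injection, the comparison that asked whether systemic dosing altered the same genes. Mylip, the gene of this ligase, was at 22.3 and 30.9 CPM with DMSO, 57.6, 44.8, 42.1 and 57.4 CPM with I.P., and 22.9 and 27.5 CPM with S.C. All 4 I.P. mice were above the other 4 mice, and the S.C. mice fell within the control range. The I.P. rise was 1.89-fold (log2 0.91 ± 0.27, edgeR quasi-likelihood test, adjusted p = 0.98). Nr1h3, the gene of LXRα, was at 45.1 and 24.8 CPM with DMSO, 52.0, 58.6, 73.3 and 67.0 CPM with I.P., and 56.1 and 52.5 CPM with S.C. Every treated mouse exceeded both controls. With I.P. it rose by 1.79-fold (log2 0.84 ± 0.30, adjusted p = 0.98), and with S.C. the 1.56-fold difference did not pass (log2 0.64 ± 0.41). The call on Nr1h3 was lost without DMSO mouse 2 (log2 0.47) or I.P. mouse 3 (0.75), and that on Mylip without DMSO mouse 1 (0.70). Nr1h2, the gene of the broadly expressed LXRβ, ranged from 31.5 to 82.5 CPM and passed in neither route.

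With I.P. these were the only ones of the 33 past the unadjusted threshold, 2 higher (6.06%) where 2.55% of the 12174 genes tested were higher and 0.879% lower, and neither reached the 2-fold that 2% of all genes passed together with it. At an adjusted p of 0.05 the count was 0 for the 33 genes and 0% of all genes in edgeR's quasi-likelihood test, although 311 genes were higher and 107 lower unadjusted; the likelihood ratio test gave 10 genes and DESeq2 26, none of them among the 33. Groups did not overlap for 4 genes upwards (12.1%; Mvk, Sc5d, Nr1h3 and Mylip), where 7.29% of all genes did so, and for 1 downwards (3.03%; Sqle), where 6.88% did. The sterol side had a median of 0.05 and the LXR side of 0.04, with 0.02 over all genes, and no sterol-side gene passed in either direction. Without DMSO mouse 2 the LXR-side median was 0.41.

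Of the lipogenic genes Fasn and Scd1 were low, and none passed in either route. Srebf1, the gene of SREBP1c, was counted over all its transcripts and shares exon bases with Rai1 on the other strand. It gave 36.8 and 43.5 CPM with DMSO, 67.6, 49.7, 34.5 and 56.2 CPM with I.P., and 44.7 and 69.4 CPM with S.C. Its changes of log2 0.36 ± 0.29 and 0.51 ± 0.38 did not pass. Fasn had 4.84 and 12.5 CPM with DMSO, 11.1, 5.93, 7.73 and 5.82 CPM with I.P., and 15.6 and 1.01 CPM with S.C., with the extremes of all 8 mice in the S.C. pair. Scd1 repeated this at low level, with 3.27 and 3.46 CPM with DMSO, 2.21, 2.75, 1.06 and 5.34 CPM with I.P., and 5.93 and 0.65 CPM with S.C. Scd2, a close paralog whose reads could be split with Scd1 in counting, was more abundant, with 77.0 and 127 CPM, then 91.7, 95.5, 85.6 and 150 CPM, then 92.3 and 147 CPM in the same order, and the groups overlapped. Lpcat3, whose exons overlap those of Emg1 on the other strand, lay between 50.3 and 81.6 CPM in all mice.

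**Figure D4:**
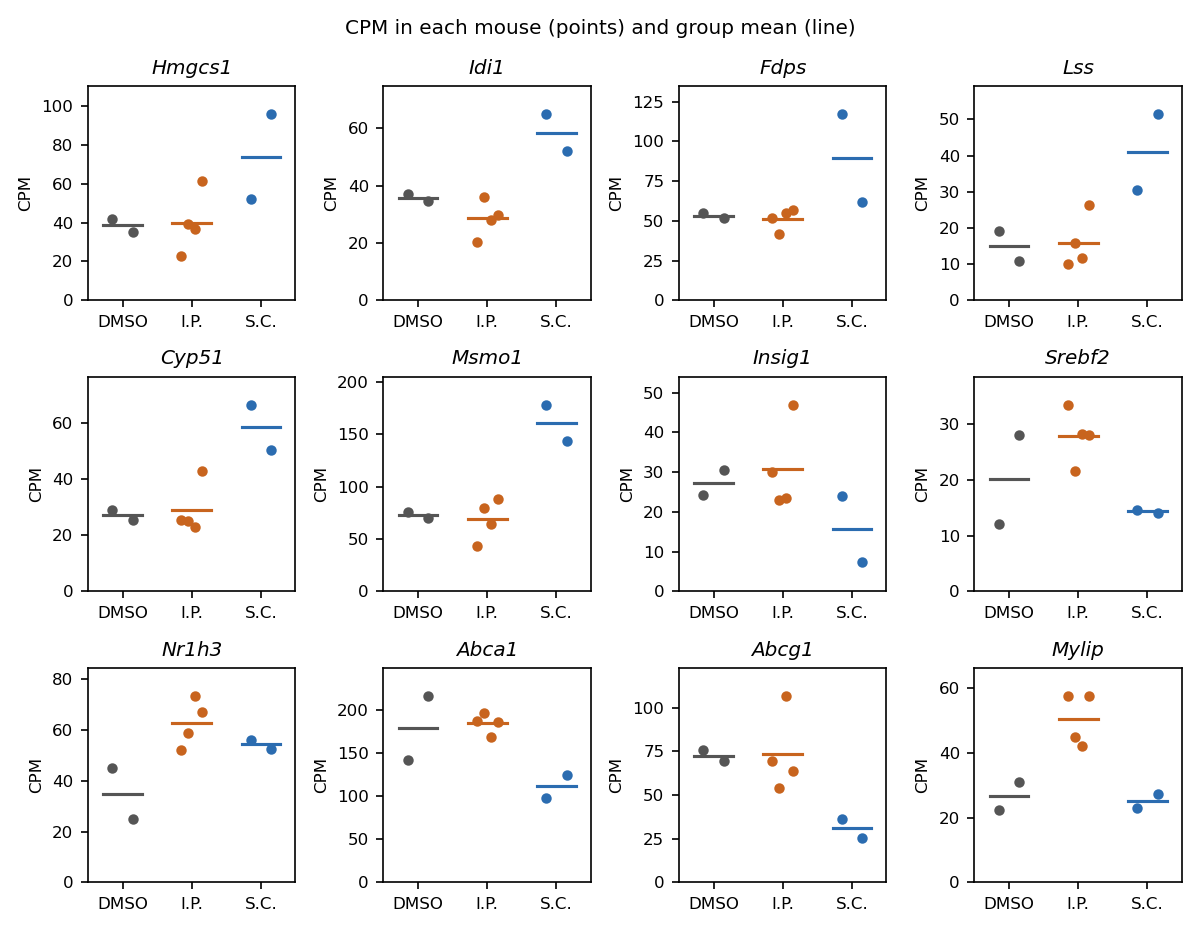
CPM in each mouse (points) and group mean (line) for 12 genes, each panel with its own axis from 0. In Lss, Cyp51, Msmo1 and Idi1 both S.C. mice lie above all other mice, in Abcg1 and Abca1 below them, and in Mylip all 4 I.P. mice lie above the DMSO and S.C. mice.

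The 2 routes were then compared directly, S.C. with I.P. mice, which tests whether levels differed between them without the shared controls. Of the 33 genes, 9 (27.3%) passed an unadjusted P of 0.05, with adjusted p-values from 0.295 to 0.525 in edgeR's quasi-likelihood test. Idi1, Fdps, Lss, Cyp51 and Msmo1 were higher with S.C., where 3.25% of 12206 genes were, and Srebf2, Abca1, Abcg1 and Mylip were lower, where 5.34% were. At the 2-fold criterion 5 of them remained (Idi1, Lss, Cyp51, Msmo1 and Abcg1), against 7.05% of all genes. Adjusted over all genes 0 of the 33 and 0% of all genes passed in the quasi-likelihood test, whereas Msmo1 passed in edgeR's likelihood ratio test (adjusted p = 0.0319) and in DESeq2 (adjusted p = 0.036), in which 265 and 234 genes passed; 397 genes were higher and 652 lower unadjusted.

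Among the sterol enzymes, Msmo1 had the lowest unadjusted P between the routes, with a difference of 2.38-fold (log2 1.25 ± 0.31, edgeR quasi-likelihood test, adjusted p = 0.295). Its log2 difference lay between 1.08 and 1.44 over 15 alternative settings, which refit these same mice and are no separate support. Idi1 followed at 2.09-fold (log2 1.06 ± 0.31), then Lss at 2.63-fold (1.40 ± 0.44), Cyp51 at 2.06-fold (1.04 ± 0.33) and Fdps at 1.78-fold (0.84 ± 0.32). In each of these 5 both S.C. mice were above all 4 I.P. mice. Fdps was at log2 0.29 without S.C. mouse 1 and then did not pass, as did Cyp51 at 0.82, and Lss did not pass without S.C. mouse 2 (0.98). Fdps did not pass without I.P. mouse 2 (0.75) or 3 (0.84) either, nor Cyp51 without I.P. mouse 3 (0.91). Hmgcs1 at 1.89-fold did not pass (log2 0.92 ± 0.41), and I.P. mouse 4 at 61.1 CPM exceeded S.C. mouse 1 at 52.1 CPM.

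Srebf2 was lower with S.C. than with I.P. by 1.91-fold (log2 -0.93 ± 0.34) with both S.C. mice below all 4 I.P. mice, while the 5 enzymes were higher. It did not pass without S.C. mouse 2 (-0.91) or I.P. mouse 3 (-0.95). On the LXR side Abcg1 was lower by 2.33-fold (log2 -1.22 ± 0.37), Mylip by 1.96-fold (-0.97 ± 0.30) and Abca1 by 1.63-fold (-0.70 ± 0.24), whereas Nr1h3 differed by -0.18 ± 0.27. Abcg1 did not pass without S.C. mouse 2 (-0.99), nor Abca1 without S.C. mouse 1 (-0.55) or I.P. mouse 2 (-0.67). Groups did not overlap for 6 genes upwards (18.2%) and 6 downwards (18.2%), against 7.46% and 11.1% of all genes. The medians of the sterol and LXR sides were 0.39 and -0.08, with 0.02 over all genes. Without S.C. mouse 1 they were 0.01 and -0.71.

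Other genes of the same pathways, 39 in number and listed beside the 33, were counted in each comparison. With I.P., 4 of 36 tested were higher and 2 lower at P under 0.05, where 2.55% and 0.879% of all genes were, and the lowest adjusted p was 0.98 in edgeR's quasi-likelihood test. The 4 were all on the LXR side: Apoe, the apolipoprotein of macrophage efflux (log2 1.39 ± 0.46), Smpdl3a, an LXR-responsive phosphodiesterase (1.14 ± 0.24), Rxrb, an LXR partner (0.88 ± 0.36), and Pltp, the phospholipid transfer protein (0.71 ± 0.28). Ch25h, which makes an oxysterol (-1.47 ± 0.52), and Lbr, a sterol reductase of the nuclear envelope (-0.66 ± 0.27), were lower. With S.C., 3 of 35 were higher and none lower, where 2.5% and 2.91% of all genes were (lowest adjusted p = 0.747), namely Smpdl3a (1.06 ± 0.31), Apoe (0.95 ± 0.34) and Rxrb (0.91 ± 0.37). Apoe was at 9536 and 6678 CPM with DMSO, 37843, 14219, 13475 and 20197 CPM with I.P., and 14072 and 17245 CPM with S.C., so that every treated mouse was above both controls, as was the case for Smpdl3a with 242 and 216 CPM, then 533, 403, 492 and 605 CPM, then 410 and 545 CPM. Both routes were set against the same DMSO mice. Between the routes 1 of 36 passed, Tmem97, a sterol-regulated membrane protein, higher with S.C. (0.69 ± 0.26, adjusted p = 0.497), where 3.25% of all genes were higher and 5.34% lower.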

How the data were processed

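RNA-seq counts of TAMs of 8 mice (2 DMSO, 4 I.P., 2 S.C.) were used as deposited by the authors, as whole-number counts per gene without normalization. Per the study's methods reads were aligned to mm10 with bowtie2 and counted with RSEM, whereas the submitters' processing notes name TopHat2 and edgeR. Whether strand was used in counting is not given in the sources used here, so genes with overlapping exons may share reads. Mice were grouped by their labels.

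edgeR 4.0.16 was used in R 4.3.3. Low genes were dropped with filterByExpr (at least 10 counts in enough mice, 15 in total), library sizes were scaled by TMM, and the mice of 2 groups at a time entered a quasi-likelihood fit tested on both sides, with Benjamini-Hochberg adjustment over the genes that passed the filter. The study called DEGs at an unadjusted P of 0.05 and 2-fold. CPM use TMM-scaled library sizes, and 3 counts are 0.168 to 0.217 CPM in these libraries. Exon lengths are from GENCODE vM21. Msmo1 and the macrophage marker Adgre1 stand in the counts under older symbols, matched through RefSeq synonyms. Promoters are from RefSeq.

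Values in every mouse are given for those of the 33 genes that passed an unadjusted P of 0.05 in any comparison, whose treated mice all lay on one side of the DMSO mice with a 1.5-fold change, or that mark a role. Members and lists were chosen with earlier results of these data known. Alternatives were no gene filter, 1 CPM in 2 samples, RLE factors, library size only, the likelihood ratio test, DESeq2 1.42.0, all 3 groups in 1 fit, a replicate block and leaving out each mouse, and, chosen after seeing the data, 8 counts in every sample and a block with crossed numbers. Values of some listed genes are not reported here.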

Additional observations from a re-analysis of the deposited data

Results flagged for a closer look

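Dixon's ratio over the 4 I.P. mice was taken for each of the 33 genes, and chance alone flags about 1 of 20 such groups. For 3 of the 33 genes, 1 mouse was far from the other 3. The share over all genes was not computed, so this count is no result about the 33 genes in particular. Pmvk, phosphomevalonate kinase, was at 53.1 CPM in I.P. mouse 1 and at 24.6 to 26.6 CPM in the others. Cyp51 was at 42.8 CPM in I.P. mouse 4 against 23 to 25.3 CPM, and Scd2 at 150 CPM in the same mouse against 85.6 to 95.5 CPM. I.P. mouse 4 also had the most melanoma marker RNA of its group (1692 CPM against 424 to 963 CPM), whose part in these values was not tested.

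Levels differed between the routes for 9 of the 33 genes (27.3%) at an unadjusted P under 0.05 in edgeR's quasi-likelihood test of S.C. against I.P. mice. Of all 12206 genes tested, 3.25% were higher and 5.34% lower at that P, and 0 passed an adjusted p of 0.05. The log2 difference, S.C. minus I.P., was 1.06 for Idi1, 0.84 for Fdps, 1.40 for Lss, 1.04 for Cyp51 and 1.25 for Msmo1. It was -0.93 for Srebf2, -0.70 for Abca1, -1.22 for Abcg1 and -0.97 for Mylip. Route and dose cannot be told apart, since the study's S.C. dose was 20 mg/kg and its I.P. doses were 150 or 300 mg/kg.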

How the results depend on the processing

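No result changed direction in a gene that had passed an unadjusted P of 0.05. Genes with an adjusted p under 0.05 numbered 0 in each comparison; for I.P. against DMSO they were 10 with the likelihood ratio test and 26 with DESeq2; for S.C. against DMSO 179 and 107, with 10 without a gene filter, 4 with all 3 groups in 1 fit and 2 with 8 counts in every sample; and for S.C. against I.P. 265 and 234, with 2 in the fit of all groups. The cause was not tested. Fdps between the routes was at 0.73 with library size only and did not pass.

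Nothing in the sources used here says that equal replicate numbers mark paired mice. Deviations of same-numbered mice from their group means correlated at -0.187 and 0.016 (I.P. and DMSO), -0.186 (S.C. and DMSO) and 0.17 and 0.019 (S.C. and I.P.). In a group of 2 mice the deviations mirror each other, so these values cannot show whether mice were paired. With the replicate block, which leaves out I.P. mice 3 and 4 and keeps all DMSO and S.C. mice, 0 genes of the 33 passed for I.P. with a sterol-side median of -0.19 and 0 genes adjusted; 3 passed for S.C., with 19 genes adjusted; and 4 passed between routes, with 7 adjusted and an LXR-side median of -0.36. Crossing the numbers for S.C. against DMSO gave 4 of the 33 and 2 adjusted genes.

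Leaving out 1 mouse at a time, the genes of the 33 past that threshold ranged from 1 to 2 for I.P., from 0 (without either DMSO mouse) to 13 (without either S.C. mouse) for S.C., and from 7 to 11 between routes. Adjusted genes stayed at 0 for I.P. and ranged from 0 to 2407 for S.C. (1979 without S.C. mouse 1, 2407 without mouse 2) and from 0 to 138 between routes (71 and 138). The sterol-side median ranged from -0.10 to 0.13 for I.P., from -0.07 (without S.C. mouse 1) to 0.52 for S.C. and from 0.01 to 0.50 between routes, and the LXR-side median from -0.08 to 0.41 (without DMSO mouse 2), from -0.33 (without S.C. mouse 1) to 0.08, and from -0.71 to -0.03. Between routes without 1 I.P. mouse, 1.85% to 4.2% of all genes were higher and 3.78% to 5.43% lower at that threshold. In fits with 1 mouse left in a group the counts moved across all genes, and not in the 33 alone. With 2 mice in 2 of the groups, p-values set each difference against a spread estimated from few mice and partly shared across genes by the fit.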
